A study of Gallus gallus with 9 samples.

Results

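The genes described here are 485 predicted gene models of the chick thymus, which are listed under a running number and carry no Ensembl identifier. The deposited table holds 660 such models among 25016 genes, and 485 of them reached at least 1 FPKM (the fragments of a gene per length and per library total) in at least 3 of 9 libraries. The other 175 did not, and they enter below for contrast. The 3 models just inside this level rule had 1.01 (predicted gene 156), 1.01 (369) and 1.02 FPKM (306) in the library with the third highest value, and the 3 just outside had 0.991 (predicted gene 97), 0.981 (137) and 0.968 FPKM (495).

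The libraries come from the thymus of ROSS 308 broilers, a commercial meat breed of chicken, on day 21 after hatching. In the GEN group (n = 3) chicks were treated with lipopolysaccharide, a component of the outer membrane of Gram-negative bacteria that sets off innate immune responses, and with genistein, a soy isoflavone. In the LPS group (n = 3) they were treated with lipopolysaccharide and no genistein, and in the CON group (n = 3) with the basic diet. The labels state neither doses nor times of treatment, nor whether a library is 1 bird, so the p-values measure spread among libraries, which may in part be technical. No identifier in the table is paired with a gene symbol, so thymic marker genes could not be looked up and the labelled tissue was not checked against them.

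Gene models are predicted where sequenced fragments cover, or are spliced across, a stretch of genome in which the annotation places no gene. Such models can be long non-coding RNAs, protein-coding genes that the annotation misses, unannotated ends of known genes, or transcripts that start from the back of a known promoter. The smallest chicken chromosomes, called microchromosomes, are dense in genes and rich in G and C, and they are the hardest to sequence and to annotate. No base sequence of these models was read here, since the reference at hand is of another genome build than GRCg6a, the build of the deposited coordinates.

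The 485 predicted genes were shorter and less abundant than annotated genes. Their median length was 1377 bases (quartiles 738 and 2569, range 221 to 39251), against 2262 bases (quartiles 1442 and 3271) for the 13021 Ensembl genes that meet the same level rule. Their median level per length was 2.47 FPKM over the 9 libraries, against 11.7 FPKM for the Ensembl genes. A mean under 2 FPKM was found for 203 predicted genes (41.9%), against 13.5% of the Ensembl genes, and a mean of at least 10 FPKM for 74 (15.3%), against 54.6%. At least 1 FPKM in each of the 9 libraries was reached by 264 predicted genes (54.4%), against 83.5% of the Ensembl genes. The median predicted gene rested on 88 fragments per library, and 20 of the 485 had fewer than 10 fragments in their median library. The 175 models under the level rule were shorter still, with a median of 583 bases.

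**Figure D1:**
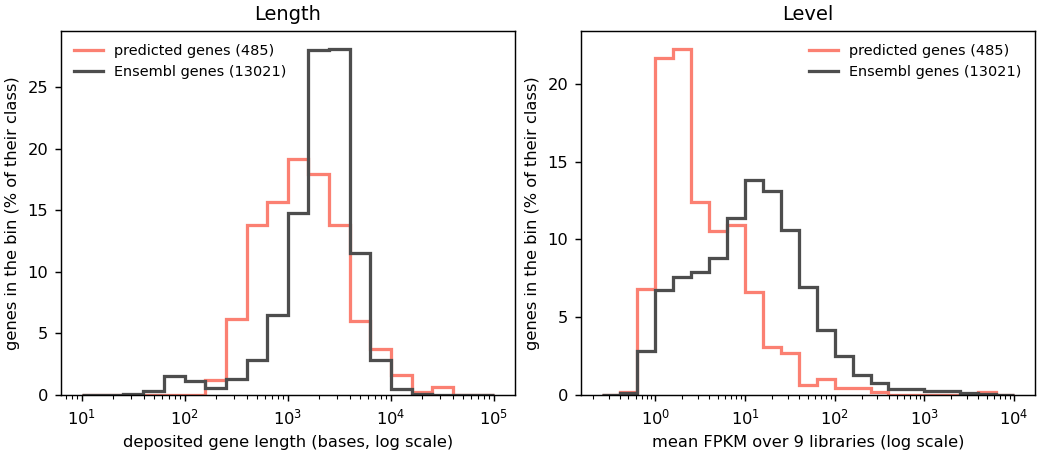
Distribution of deposited gene length (left, bases, log scale) and of mean FPKM over 9 libraries (right, log scale) for the 485 predicted genes and the 13021 Ensembl genes that meet the same level rule, as a percentage of each class per bin. The predicted genes lie further to the left in both panels, with medians of 1377 bases and 2.47 FPKM.

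Most predicted genes were spliced models. The deposited length was smaller than the genomic span in 372 of 485, with a median length of 1310.5 bases and a median level of 2.69 FPKM. The other 113 (23.3%) had no intron, with a median length of 1713 bases and a median level of 1.85 FPKM. Among the Ensembl genes 5.41% had no intron, and these had a median length of 133 bases. The predicted genes divided about evenly between the strands, with 248 on plus and 237 on minus.

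At the long end, 12 predicted genes exceeded 10000 bases. The longest, predicted gene 652, lies on chromosome Z (16489918 to 16546929, minus strand, 39251 bases) and had 3.53, 2.35 and 3.92 FPKM in GEN, 2.09, 2.33 and 2.66 FPKM in LPS, and 2.39, 1.44 and 2.17 FPKM in CON. Next came predicted gene 221 on chromosome 2 (35314128 to 35407086, minus strand, 36288 bases) with 2.33, 2.67 and 4.37 FPKM in GEN, 1.58, 2.13 and 2.42 FPKM in LPS, and 1.47, 1.65 and 1.34 FPKM in CON. All 3 GEN libraries of predicted gene 221 were above both the LPS and the CON libraries except GEN 1, which lay below LPS 3. Predicted gene 494 on chromosome 5 (47499105 to 47529701, plus strand, 30597 bases) has no intron, lies 70285 bases from the nearest Ensembl gene and had 3.48, 4.19 and 6.04 FPKM in GEN, 2.03, 3.91 and 3.23 FPKM in LPS, and 2.59, 3.33 and 3.37 FPKM in CON. These 3 were low per length, but they rested on 763 to 4631 fragments per library.

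The 3 shortest models join small exons over long spans. Predicted gene 368 lies on chromosome 30 (12346 to 21124, minus strand, 221 bases), spans 8779 bases and had 2.33, 4.25 and 7.41 FPKM in GEN, 1.02, 6.31 and 2.68 FPKM in LPS, and 1.21, 5.71 and 24.2 FPKM in CON. Its span overlaps that of predicted gene 369 on the same strand, and whether the 2 share fragments was not tested. Predicted gene 551 lies on chromosome 9 (8610144 to 8626111, plus strand, 229 bases), spans 15968 bases and had 2.65, 5.54 and 4.53 FPKM in GEN, 2.12, 4.61 and 4.66 FPKM in LPS, and 1.75, 1.42 and 1.11 FPKM in CON. The 3 CON libraries of predicted gene 551 lay below all GEN and LPS libraries, at 4 to 27 fragments per library. The other one, predicted gene 94 with 240 bases, is described with the comparisons.

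Predicted genes lay on nearly every chromosome and made up more of the tested genes on the microchromosomes 30 to 33 and on unplaced scaffolds. Chromosomes 1 to 5 held 160 of them, which is 2.88% of the 5556 genes tested there, and over chromosomes 1 to 28 and Z together the share was 2.96%. On chromosomes 30 to 33, 69 predicted genes made up 12.9% of 535 tested genes, with 20% on chromosome 31 and 17.3% on chromosome 30. On 10 unplaced scaffolds, 37 predicted genes made up 29.1% of 127 tested genes. Over all 13506 tested genes the share was 3.59%. Chromosomes 16 (8.89%), 25 (6.36%), 28 (5.3%) and 14 (4.95%), among others, also had higher shares than that. The lowest shares were on chromosome 21, with 1 predicted gene (0.452%), and on chromosome 17, with 2 (0.743%). The mitochondrial genome held 0 predicted genes. Chromosome W held 2, both under the level rule, and 0 Ensembl genes on it met that rule. No test is given for these shares, since genes are not replicates.

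**Figure D2:**
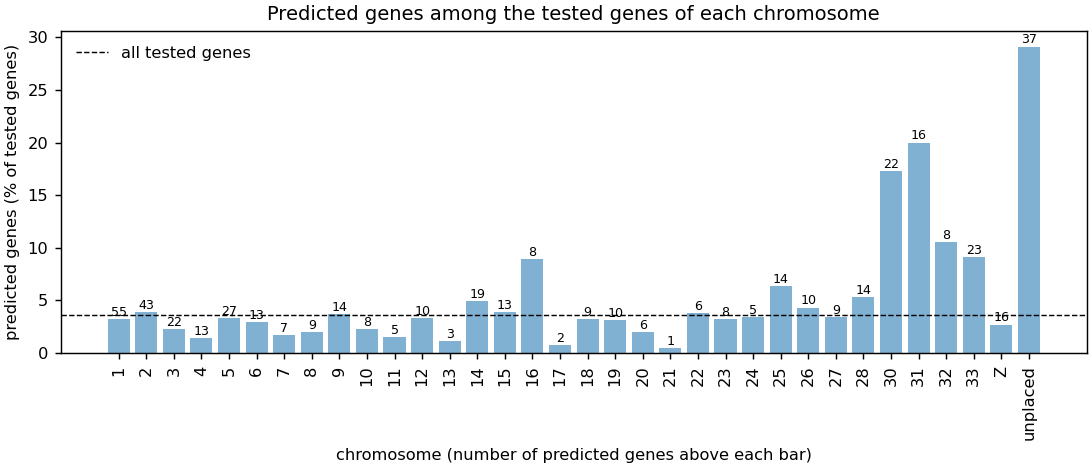
Predicted genes as a percentage of the genes tested on each chromosome, with the number of predicted genes above each bar and the share over all tested genes (3.59%) as a dashed line. Chromosomes 30 to 33 (9.13% to 20%), chromosome 16 (8.89%) and the unplaced scaffolds (29.1%) stand furthest above the line. Chromosomes 25 (6.36%), 28 (5.3%), 14 (4.95%), 26 (4.31%), 15 (3.86%), 2 (3.85%), 22 (3.75%) and 9 (3.66%) also lie above it.

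Chromosome 16, which carries the chicken major histocompatibility complex, held 8 predicted genes among 90 tested genes. The most abundant of them, predicted gene 149 on chromosome 16 (2755759 to 2760877, plus strand, 881 bases), had 12.6, 12.6 and 14.0 FPKM in GEN, 16.4, 21.0 and 14.6 FPKM in LPS, and 10.5, 15.8 and 8.68 FPKM in CON. Its GEN libraries lay below its LPS libraries, and its CON libraries overlapped both. On the opposite strand and inside its span lies predicted gene 157 (2756379 to 2757073), with 3.53, 3.23 and 9.43 FPKM in GEN, 0.981, 6.65 and 3.37 FPKM in LPS, and 1.32, 4.61 and 2.61 FPKM in CON. Predicted gene 154 on chromosome 16 (1764505 to 1772825, minus strand, 7605 bases) lay between 2.16 and 3.03 FPKM in the 9 libraries. Predicted gene 153 (705820 to 739527) ran from 0.734 FPKM in GEN 3 to 9.28 FPKM in CON 3, predicted gene 147 (741468 to 742698) from 0.283 FPKM in LPS 1 to 3.01 FPKM in GEN 1, and predicted gene 148 (1763583 to 1764035) from 0.492 FPKM in CON 1 to 2.25 FPKM in CON 3, and for each of these 3 the groups overlapped.

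The predicted genes lie almost wholly between annotated genes. For 482 of 485 no base of an Ensembl gene span was overlapped, and the same held for all 175 models under the level rule. Models of this kind are usually predicted where the annotation places no gene. No source used here states how these ones were made, and whether such a rule sets the low overlap was not tested. Ensembl genes, of which 27.6% overlap another Ensembl span, would be under no such rule. Of the exceptions among the 485, predicted gene 153 on chromosome 16 has 73.8% of its span inside ENSGALG00000037980 on the same strand, and predicted gene 600 on an unplaced scaffold has 8.25% of its span inside an Ensembl gene on the other strand. The third, predicted gene 312 on chromosome 27 (2900165 to 3203128, minus strand, 2221 bases), has a span of 302964 bases that takes in 23 Ensembl genes. Another predicted gene was overlapped by 33 of the 485, on the other strand in 28 cases and on the same strand in 5. No source used here states whether the counting used strand, so fragments of overlapping or touching genes cannot be told apart with certainty.

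Many predicted genes begin or end right beside an annotated gene. The nearest Ensembl span was within 1000 bases for 223 predicted genes (46.0%) and within 20 bases for 44 (9.07%), and 7 touched it with 0 bases between. For the 175 models under the level rule the shares were 21.1% and 1.14%, and for Ensembl genes, measured to their nearest Ensembl neighbour, 24.2% and 1.37%. These Ensembl shares are of 13014 genes. The 27.6% whose span overlaps that of another Ensembl gene are in that total but not among the genes counted as near, which lowers the shares. With overlaps counted in, 46.7% of 484 predicted genes and 51.8% of 13014 Ensembl genes lay within 1000 bases, 9.71% and 28.9% lay within 20 bases, and the median gap was 1211 bases for predicted and 875 bases for Ensembl genes. Of the 44 within 20 bases, 41 lay on the strand opposite to the neighbour, 18 of them head to head (starts facing) and 23 tail to tail (ends facing). Among the 178 Ensembl genes within 20 bases of a neighbour, 106 lay on the opposite strand. Within 1000 bases, 96 predicted genes lay head to head (43.0%, against 42.2% of the Ensembl genes at that distance) and 57 tail to tail (25.6%, against 19.8%). A further 39 lay upstream (17.5%, against 17.8%) and 31 downstream (13.9%, against 20.2%) of the neighbour on its own strand. These orientations rest on the deposited strand of each model, and no source used here states how that strand was set.

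The annotated neighbours were mostly expressed. Of the 223 neighbours within 1000 bases, 197 met the level rule, as did 13021 of all 24356 Ensembl genes. Lower per length than their neighbour were 152 predicted genes. As a class the predicted genes were also lower than the Ensembl genes that met the rule (medians 2.47 and 11.7 FPKM). A lower level is thus not shown to be particular to neighbouring pairs. Head to head, the predicted gene was the lower one in 72 of 96 pairs, with a median of 3.07 FPKM for the predicted genes and 17.9 FPKM for the neighbours. Tail to tail it was the lower one in 37 of 57 pairs, with medians of 6.01 and 10.4 FPKM. In the 39 upstream cases the medians were 1.92 and 7.56 FPKM, and in the 31 downstream cases 4.35 and 13.6 FPKM.

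CON 3 stood apart from the other 8 libraries, and this touches each comparison with CON. Across the 485 predicted genes its correlation with the other libraries, on the log2(FPKM + 1) scale, was 0.807 to 0.850, against 0.868 to 0.940 among the other 8. The total that the FPKM values were scaled by was 0.767 times the sum of gene fragments in CON 3 and 1.01 to 1.09 times in the others, and mitochondrial genes took 3.94% of its gene fragments, against 1.43% to 1.93%. Of the predicted genes, 248 (51.1%) were higher in CON 3 than in each of the 8 others and 64 (13.2%) were lower than in each, while for the Ensembl genes these shares were 35.3% and 36.1%. The median difference of CON 3 from the mean of the others, in log2(FPKM + 1), was 0.53 for predicted and 0.01 for Ensembl genes under 500 bases, 0.50 and 0.59 at 500 to 1000 bases, and 0.67 and 0.25 at 1000 to 2000 bases. It was 0.36 and -0.07 at 2000 to 4000 bases, and 0.08 and -0.32 from 4000 bases on. Predicted genes were thus the higher ones in 4 of the 5 length classes. Within these classes the 2 kinds of gene are not matched for level (medians 2.47 and 11.7 FPKM over all lengths). Under 500 bases they also differ in length: the shortest predicted gene has 221 bases, while Ensembl genes without an intron have a median of 133 bases. Whether level or length sets the difference was not tested. Named results, counts of the main limma fit and counts of groups that did not overlap, where they rest on CON, are given with and without CON 3, or with its own value beside them. Counts that rest on CON by voom, by the sum of fragments and by quantile normalization include CON 3 throughout. The libraries held 19618047 to 25863282 fragments in genes.

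The most abundant predicted gene outweighed the other 484 together. Predicted gene 448 on chromosome 33 (6249689 to 6255186, minus strand, 5498 bases) has no intron. It starts 6 bases from ENSGALG00000040194, an entry of far shorter span that lies head to head with it and averaged 22.2 FPKM. It had 3853, 4379 and 5021 FPKM in GEN, 2304, 4441 and 3555 FPKM in LPS, and 2472, 3078 and 11031 FPKM in CON. The groups overlapped, and CON 3 was 3.03 times the mean of the other 8 libraries. By fragments it ranked 1 among all genes in each of the 9 libraries, with 305000 to 951789 fragments, and by FPKM its rank was 1 to 29. Its log2 fold change was -0.40 (SE 0.54, limma adjusted p 0.728) in LPS against CON, 0.41 (SE 0.54, limma adjusted p 1.00) in GEN against LPS and 0.0043 (SE 0.54, limma adjusted p 0.997) in GEN against CON. Without CON 3 these were 0.26 (SE 0.26, limma adjusted p 0.948), 0.41 (SE 0.23, limma adjusted p 0.455) and 0.67 (SE 0.26, limma adjusted p 0.279).

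The 485 predicted genes together took 2.89%, 3.28% and 3.67% of the gene fragments in GEN 1 to 3, 1.91%, 3.23% and 2.72% in LPS 1 to 3, and 1.96%, 2.32% and 5.37% in CON 1 to 3. Group means were 3.28% ± 0.389 for GEN, 2.62% ± 0.665 for LPS and 3.22% ± 1.88 for CON (SD, n = 3 each), and the libraries of all 3 groups overlapped. Predicted gene 448 made up 68.6% to 86.5% of these fragments. The other 484 took 0.670%, 0.662% and 0.721% in GEN, 0.600%, 0.650% and 0.647% in LPS, and 0.589%, 0.592% and 0.725% in CON. In this remainder each GEN library lay above each LPS library and above CON 1 and CON 2, and CON 3 was the highest of all 9. The remainder was added after the data were seen, and GEN 2 (0.662%) lay only slightly above LPS 2 (0.650%). The 95% Wilson intervals were at most 0.0195 percentage points wide and cover counting error only.

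**Figure D3:**
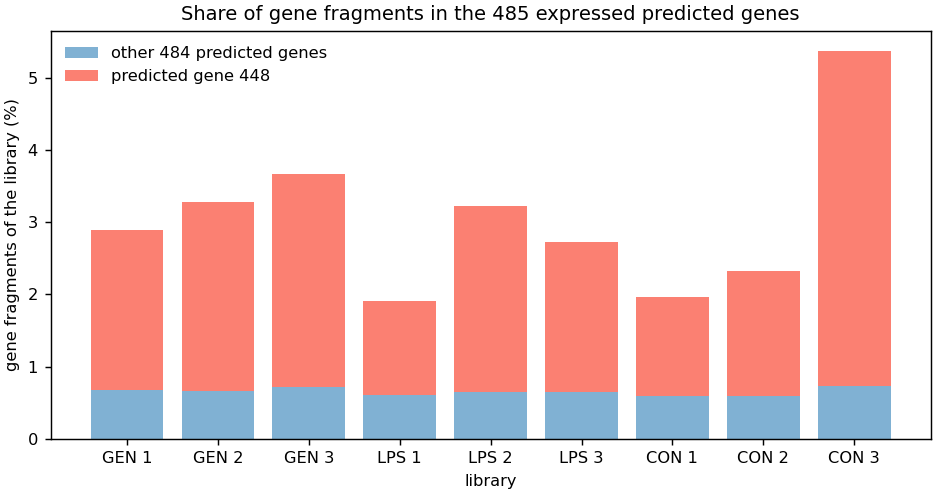
Share of each library's gene fragments (%) in the 485 predicted genes, with predicted gene 448 stacked on the other 484. The total runs from 1.91% in LPS 1 to 5.37% in CON 3, while the share without predicted gene 448 stays between 0.589% and 0.725%.

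A few genes followed predicted gene 448 over the libraries. Likeness was taken as the SD over the 9 libraries of the log2 ratio of a gene to it, among 11915 genes with at least 20 fragments in each library, and was looked up after its values were seen. The median gene had an SD of 0.71. The lowest SD, 0.15, was that of predicted gene 259 on chromosome 23 (217815 to 219836, minus strand, 2022 bases), with 1.04, 1.21 and 1.64 FPKM in GEN, 0.666, 1.34 and 0.919 FPKM in LPS, and 0.882, 0.967 and 3.09 FPKM in CON. Predicted gene 176 on chromosome 19 (10141415 to 10143170, plus strand, 1027 bases), at rank 3 with an SD of 0.16, had 8.65, 9.37 and 14.0 FPKM in GEN, 5.57, 11.6 and 8.70 FPKM in LPS, and 6.47, 6.98 and 21.9 FPKM in CON. Rank 4 was held by ENSGALG00000035334 of the mitochondrial genome (9923 to 10706), whose level was 75.2% to 108% of that of predicted gene 448. Of the 20 most alike genes 2 were predicted ones, and of the 11915 genes ranked 328 were. The points share their libraries, their scaling and the high CON 3, and whether those set the likeness was not tested.

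The next 9 predicted genes by level averaged between 71.6 and 254 FPKM. Predicted gene 437 on chromosome 33 (7198677 to 7199866, plus strand, 959 bases) had 199, 173 and 172 FPKM in GEN, 205, 202 and 189 FPKM in LPS, and 207, 178 and 759 FPKM in CON. Predicted gene 98 on chromosome 12 (11660784 to 11664475, minus strand, 445 bases), whose start lies 2 bases from that of ENSGALG00000006465 (15.6 FPKM), had 170.1, 172 and 156 FPKM in GEN, 181, 183 and 157 FPKM in LPS, and 175, 160.1 and 659 FPKM in CON. Both were even over 8 libraries and higher in CON 3 alone.

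Of the other abundant ones, predicted gene 131 on chromosome 15 (251120 to 258419, plus strand, 766 bases) had 162, 130.1 and 118 FPKM in GEN, 183, 146 and 142 FPKM in LPS, and 160.2, 160.1 and 324 FPKM in CON. Predicted gene 172 on chromosome 19 (697157 to 697440, plus strand, 284 bases) has no intron and ends 4 bases from the end of ENSGALG00000018344, a short entry (697445 to 697536). Predicted gene 172 had 101, 121 and 141 FPKM in GEN, 66.8, 109 and 82.8 FPKM in LPS, and 59.0, 52.6 and 293 FPKM in CON. Here each GEN library but GEN 1 was above the LPS libraries, and each GEN library was above CON 1 and CON 2, while CON 3 was again the highest. Its log2 fold change in GEN against CON was 0.30 (SE 0.57, limma adjusted p 0.797), and without CON 3 it was 1.09 (SE 0.20, limma adjusted p 0.174).

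Predicted gene 323 on chromosome 28 (4057875 to 4061549, plus strand, 3296 bases) went the other way in CON 3, with 91.2, 65.4 and 58.8 FPKM in GEN, 91.6, 60.6 and 74.2 FPKM in LPS, and 97.1, 79.3 and 31.3 FPKM in CON. CON 3 was its lowest library. Predicted gene 601 on an unplaced scaffold (1791621 to 1799832) had 69.7, 69.7 and 56.5 FPKM in GEN, 67.3, 64.9 and 70.6 FPKM in LPS, and 87.5, 79.4 and 79.1 FPKM in CON, with each CON library above each LPS and GEN library. Predicted gene 264 on chromosome 23 (5935449 to 5944082) averaged 111 FPKM, predicted gene 229 on chromosome 2 (85943334 to 85983002) 91.1 FPKM and predicted gene 468 on chromosome 4 (29259577 to 29261619) 89.9 FPKM. All 3 were highest in CON 3, at 164, 170 and 198 FPKM, and without CON 3 their means were 104, 81.2 and 76.3 FPKM.

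Some predicted genes hardly varied outside CON 3. Among those of at least 10 FPKM the evenest was predicted gene 321 on chromosome 28 (3601871 to 3605672, plus strand, 2854 bases), with an SD of 0.05 in log2(FPKM + 1) over 8 libraries and 23.1, 21.9 and 23.1 FPKM in GEN, 22.4, 22.1 and 23.1 FPKM in LPS, and 23.0, 24.9 and 45.5 FPKM in CON. Predicted gene 371 on chromosome 30 (295313 to 301057, minus strand, 3482 bases) had an SD of 0.06 and 11.1, 10.6 and 11.6 FPKM in GEN, 11.0, 11.0 and 11.2 FPKM in LPS, and 10.2, 11.6 and 16.8 FPKM in CON. Predicted gene 656 on chromosome Z (36817912 to 36823692, minus strand, 2151 bases) had an SD of 0.10 and 15.04, 15.8 and 14.0 FPKM in GEN, 12.8, 14.7 and 15.6 FPKM in LPS, and 13.6, 13.6 and 11.5 FPKM in CON. It was lowest in CON 3, and predicted genes 321 and 371 were highest there. Predicted gene 538 on chromosome 7 (22591243 to 22596758), also with an SD of 0.10, had 7.61 to 9.28 FPKM in 8 libraries and 25.6 FPKM in CON 3. Its mean was 10.2 FPKM over 9 libraries and 8.28 FPKM without CON 3, so it met the limit of 10 FPKM through CON 3. As a class the predicted genes varied more than annotated genes of like level: at 2 to 5 FPKM the median SD was 0.35 for 123 predicted and 0.25 for 2098 Ensembl genes, and at 5 to 20 FPKM it was 0.25 for 110 predicted and 0.17 for 4754 Ensembl genes. Levels were matched by FPKM alone, and predicted genes are shorter (median 1377 against 2262 bases over all levels). A shorter gene rests on fewer fragments at the same FPKM, and whether that sets the wider spread was not tested.

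Other predicted genes were present in some libraries and listed at or near 0 in others. At least 5 FPKM in one and at most 0.1 FPKM in another of the 8 libraries without CON 3 was found for 7 predicted genes (1.44%), against 0.269% of the Ensembl genes, with limits chosen after the values were seen. The 2 shares are not matched for length or level. For the shorter of the 7 genes, 0 fragments allow more than 0.1 FPKM. They allow up to 0.557 FPKM for predicted gene 94 in CON 1, 0.278 FPKM for 428 in GEN 1 and 0.194 FPKM for 399 in GEN 2. A value of at most 0.1 FPKM in such a library does not show absence. Predicted genes are shorter and lower as a class, and whether that sets the larger share was not tested. Predicted gene 128 on chromosome 15 (25832 to 27450, plus strand, 1388 bases) had 8.05, 0 and 6.50 FPKM in GEN, 0, 8.15 and 12.5 FPKM in LPS, and 7.55, 0 and 0 FPKM in CON. Predicted gene 419 on chromosome 32 (619863 to 621735, plus strand, 1231 bases) had 2.89, 0 and 8.60 FPKM in GEN, 0, 3.19 and 2.38 FPKM in LPS, and 1.45, 0 and 0 FPKM in CON. Both were at 0 in the same 4 libraries, GEN 2, LPS 1, CON 2 and CON 3, where 0 fragments allow up to 0.0809 to 0.138 FPKM for predicted gene 128.

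Predicted gene 604 on an unplaced scaffold (1658083 to 1662228, minus strand, 4063 bases) had 15.9, 14.0 and 14.6 FPKM in GEN, 11.6, 7.65 and 6.14 FPKM in LPS, and 0, 10.8 and 6.93 FPKM in CON. It rested on 442 to 1482 fragments in 8 libraries and on 0 in CON 1, which allows up to 0.0329 FPKM there. Predicted gene 637, also on an unplaced scaffold (537325 to 540279), had 14.1, 0 and 6.47 FPKM in GEN, 4.57, 1.96 and 2.82 FPKM in LPS, and 0.0302, 7.80 and 0.0216 FPKM in CON. Predicted gene 399 on chromosome 31 (2640266 to 2641078, minus strand, 726 bases) had 0, 0 and 0.0550 FPKM in GEN, 0, 0.0582 and 4.41 FPKM in LPS, and 5.77, 0.112 and 8.86 FPKM in CON.

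Predicted gene 428 on chromosome 33 (4983924 to 4984558, plus strand, 505 bases) had 0, 2.05 and 0.633 FPKM in GEN, 2.37, 11.3 and 0.0783 FPKM in LPS, and 13.3, 10.8 and 2.78 FPKM in CON. Outside this class by its lowest value, predicted gene 116 on chromosome 14 (103989 to 104736, minus strand, 308 bases) had the largest ratio of highest to lowest library in FPKM + 1, with 0.152, 1.37 and 26.4 FPKM in GEN, 0.850, 1.10 and 0.642 FPKM in LPS, and 2.17, 0.132 and 3.72 FPKM in CON. Its GEN 3 value rested on 204 fragments. For predicted genes 128, 419, 637 and 116 all 3 groups overlapped, while for 604 the GEN libraries lay above all others, and for 399 and 428 they lay below all CON libraries and overlapped LPS. For 399 this rests on 1 fragment in GEN 3 against 2 fragments in CON 2. Both values lie under what 0 fragments allow there (0.165 and 0.168 FPKM), so the 2 libraries are not told apart. Predicted gene 399 reached 1 FPKM in LPS 3, CON 1 and CON 3 alone, so it met the level rule mostly through CON.

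**Figure D4:**
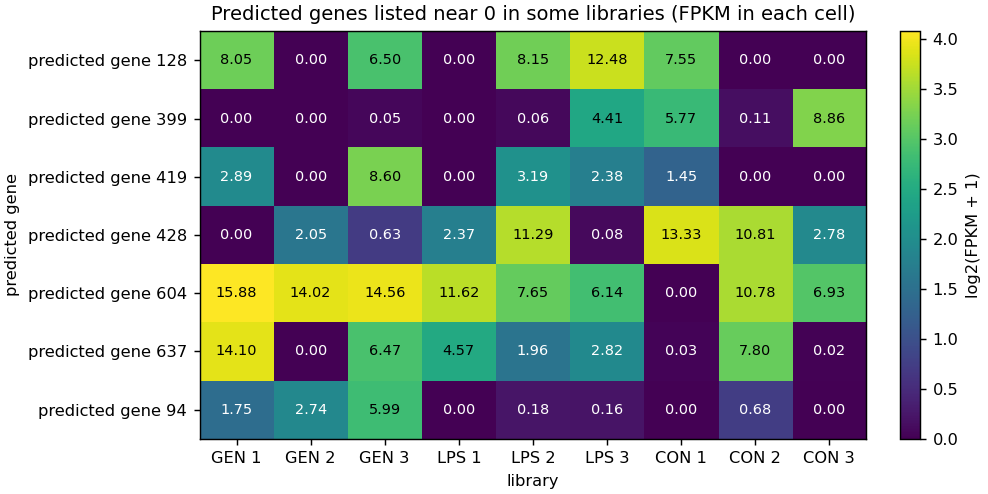
FPKM in each of 9 libraries (columns, GEN, LPS and CON) of the 7 predicted genes with at least 5 FPKM in one and at most 0.1 FPKM in another of the 8 libraries without CON 3, with color for log2(FPKM + 1). Predicted genes 128 and 419 are at 0 in the same 4 libraries, and predicted gene 604 is at 0 in CON 1 alone.

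The comparison of LPS with CON asks what lipopolysaccharide changed. No predicted gene passed the test: limma on log2(FPKM + 1) called 0 of 485 at an adjusted p under 0.05, against 0% of all tested genes, and voom on the recovered fragments also called 0. At an unadjusted p under 0.05 there were 28 (5.77%, against 4.52% of all tested genes) by limma, 13 higher (against 2.45%) and 15 lower (against 2.07%), and 28 by voom (against 4.56%), 22 of them the same genes, with 19 higher (against 3.86%) and 9 lower (against 0.696%). The directions turned with scaling. By the sum of fragments there were 32 (against 4.64%), 21 higher (against 3.86%) and 11 lower (against 0.777%), with a median log2 fold change of 0.16 over all tested genes. By quantile normalization there were 38 (against 4.16%), 10 higher (against 1.67%) and 28 lower (against 2.5%). Groups that did not overlap were found for 51 predicted genes (10.5%, against 12.2%), 19 higher (against 5.47%) and 32 lower (against 6.76%). The median log2 fold change was -0.13 over the predicted genes and 0.00079 over all tested genes. Without CON 3 the median over the predicted genes was 0.05 and the unadjusted count 37 (against 5.82%), 27 higher (against 2.67%) and 10 lower (against 3.15%). The groups then did not overlap for 99 (against 22.1%), 57 higher (against 9.68%) and 42 lower (against 12.4%). In bulk tissue, fewer cells of a type and less RNA per cell cannot be told apart.

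The predicted gene with the lowest p was predicted gene 237, a spliced model on chromosome 20 (5170329 to 5171174, plus strand, 525 bases), 2583 bases downstream of ENSGALG00000004028. It had 9.17, 6.35 and 9.81 FPKM in GEN, 56.3, 38.8 and 44.4 FPKM in LPS, and 5.26, 15.05 and 3.88 FPKM in CON, from 103, 71 and 129 fragments in GEN, 790, 482 and 589 fragments in LPS, and 62, 194 and 32 fragments in CON. The 3 LPS libraries lay far above all GEN and CON libraries, which overlapped each other. Its log2 fold change was 2.57 (SE 0.40, limma adjusted p 0.637) in LPS against CON and -2.33 (SE 0.40, limma adjusted p 1.00) in GEN against LPS. In LPS against CON its adjusted p was 0.535 without CON 3 and 0.0246 without CON 2, and it ranged to 0.807 over the alternatives. In GEN against LPS its lowest adjusted p was 0.0603, with only the 6 libraries compared, and its highest 1.00.

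Predicted gene 372 on chromosome 30 (679996 to 685025, minus strand, 644 bases) had the same order at a low level, with 0.726, 1.09 and 0.620 FPKM in GEN, 1.51, 1.84 and 2.21 FPKM in LPS, and 0.554, 0.885 and 0.989 FPKM in CON. Its LPS libraries lay above all others on 8 to 36 fragments per library, and its log2 fold changes were 0.66 (SE 0.18, limma adjusted p 0.637) in LPS against CON and -0.65 (SE 0.18, limma adjusted p 1.00) in GEN against LPS. It reached 1 FPKM in the LPS libraries and GEN 2 alone, so it met the level rule through the group in which it is high. By voom on fragments these fold changes were 1.35 and -1.16. Predicted gene 230 on chromosome 2 (110008520 to 110024894, minus strand, 3432 bases), which lies 131 bases upstream of ENSGALG00000015259, had 2.22, 2.93 and 1.71 FPKM in GEN, 3.08, 0.234 and 0.714 FPKM in LPS, and 4.18, 3.79 and 8.28 FPKM in CON. Its LPS libraries lay below all CON libraries, though LPS 1 was above all GEN libraries, and its log2 fold change in LPS against CON was -1.58 (SE 0.44, limma adjusted p 0.637) and without CON 3 -1.28 (SE 0.44, limma adjusted p 0.794), while voom gave -2.41. Predicted gene 82 on chromosome 11 (11897696 to 11900912, minus strand, 777 bases) had 0.842, 1.45 and 1.49 FPKM in GEN, 1.35, 1.03 and 1.58 FPKM in LPS, and 2.52, 2.78 and 2.30 FPKM in CON. Its CON libraries lay above all others, and its log2 fold change was -0.61 (SE 0.18, limma adjusted p 0.637) in LPS against CON and -0.65 (SE 0.18, limma adjusted p 0.452) in GEN against CON.

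GEN against LPS is the contrast for genistein, since both groups had lipopolysaccharide. Limma called 0 of 485 predicted genes (against 0% of all tested genes), and voom called 0. The unadjusted count was 23 (4.74%, against 3.24%) by limma, 14 higher (against 1.74%) and 9 lower (against 1.5%), and 23 by voom (against 3.41%), 19 of them the same genes. By the sum of fragments 27 (against 3.49%) were found, 20 higher (against 2.14%) and 7 lower (against 1.35%). Without CON 3, which then no longer enters the estimate of spread, it was 47 (9.69%, against 13.7%), 31 higher (against 6.32%) and 16 lower (against 7.37%). Groups that did not overlap were found for 68 predicted genes (14.0%, against 20.2%), 43 higher (against 8.91%) and 25 lower (against 11.3%). The median log2 fold change was 0.07 over the predicted genes and -0.02 over all tested genes.

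Predicted gene 94 on chromosome 12 (1544424 to 1552623, minus strand, 240 bases), which overlaps predicted gene 87 on the other strand, had 1.75, 2.74 and 5.99 FPKM in GEN, 0, 0.176 and 0.165 FPKM in LPS, and 0, 0.679 and 0 FPKM in CON. It rested on 9, 14 and 36 fragments in GEN, 0, 1 and 1 fragments in LPS, and 0, 4 and 0 fragments in CON. It reached 1 FPKM in the 3 GEN libraries alone and so met the level rule through GEN, which makes the higher GEN values a description. The fitted log2 fold change was 1.91 in GEN against LPS and 1.81 in GEN against CON with a pseudocount of 1, 4.03 and 4.0 with 0.1, and 4.27 and 4.11 by voom, and none passed the test. Predicted gene 402 on chromosome 31 (2858926 to 2860688, minus strand, 603 bases) had 3.88, 8.02 and 7.09 FPKM in GEN, 2.36, 1.19 and 0.918 FPKM in LPS, and 2.37, 3.51 and 7.93 FPKM in CON. Its GEN libraries lay above its LPS libraries and overlapped CON, and its log2 fold change in GEN against LPS was 1.55 (SE 0.40, limma adjusted p 1.00), with an adjusted p of 0.238 without CON 3. It overlaps predicted gene 401 on the same strand, which had 2.30, 6.62 and 8.25 FPKM in GEN, 1.47, 0.969 and 0.389 FPKM in LPS, and 1.61, 1.87 and 6.89 FPKM in CON. Whether the 2 share fragments was not tested.

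The comparison of GEN with CON takes both treatments together. Limma called 0 of 485 predicted genes (against 0% of all tested genes), and voom called 0. The unadjusted count was 43 (8.87%, against 10.8%) by limma, 23 higher (against 4.68%) and 20 lower (against 6.12%), and 43 by voom (against 10.5%), 28 of them the same genes, with 37 higher (against 8.4%) and 6 lower (against 2.07%). Groups that did not overlap were found for 56 predicted genes (11.5%, against 21.1%), 29 higher (against 8.83%) and 27 lower (against 12.3%). Without CON 3 the unadjusted count was 62 (12.8%, against 15.9%), 46 higher (against 6.57%) and 16 lower (against 9.36%), and groups did not overlap for 145 (29.9%, against 36.0%), 106 higher (against 15.6%) and 39 lower (against 20.4%). The median log2 fold change was -0.06 over the predicted genes, against 0.0084 over all tested genes, and without CON 3 it was 0.097, against -0.02. Here too the directions moved with scaling: by the sum of fragments there were 51 (against 10.8%), 40 higher (against 8.4%) and 11 lower (against 2.44%), with a median of 0.18 over all tested genes, and by quantile normalization 45 (against 10.1%), 12 higher (against 4.18%) and 33 lower (against 5.92%).

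Predicted gene 24 on chromosome 1 (93953998 to 93974721, plus strand, 7450 bases) had 2.89, 1.39 and 2.48 FPKM in GEN, 2.01, 1.49 and 1.33 FPKM in LPS, and 0.497, 0.727 and 0.453 FPKM in CON. Its CON libraries lay below all GEN and LPS libraries, which overlapped, and its log2 fold change in GEN against CON was 1.03 (SE 0.22, limma adjusted p 0.440), and 2.17 by voom. It reached 1 FPKM in each GEN and LPS library and in no CON library. It thus met the level rule through the groups in which it is high, which makes the lower CON values a description. Predicted gene 266 on chromosome 24 (4328084 to 4334171, plus strand, 1518 bases), which overlaps predicted gene 269 on the other strand, had 1.02, 0.959 and 1.29 FPKM in GEN, 2.24, 2.14 and 1.22 FPKM in LPS, and 1.94, 2.76 and 2.43 FPKM in CON. Its GEN libraries lay below all CON libraries and overlapped LPS, and its log2 fold change in GEN against CON was -0.69 (SE 0.20, limma adjusted p 0.452). The 3 comparisons share libraries in pairs, so their values for 1 gene are not independent.

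**Figure D5:**
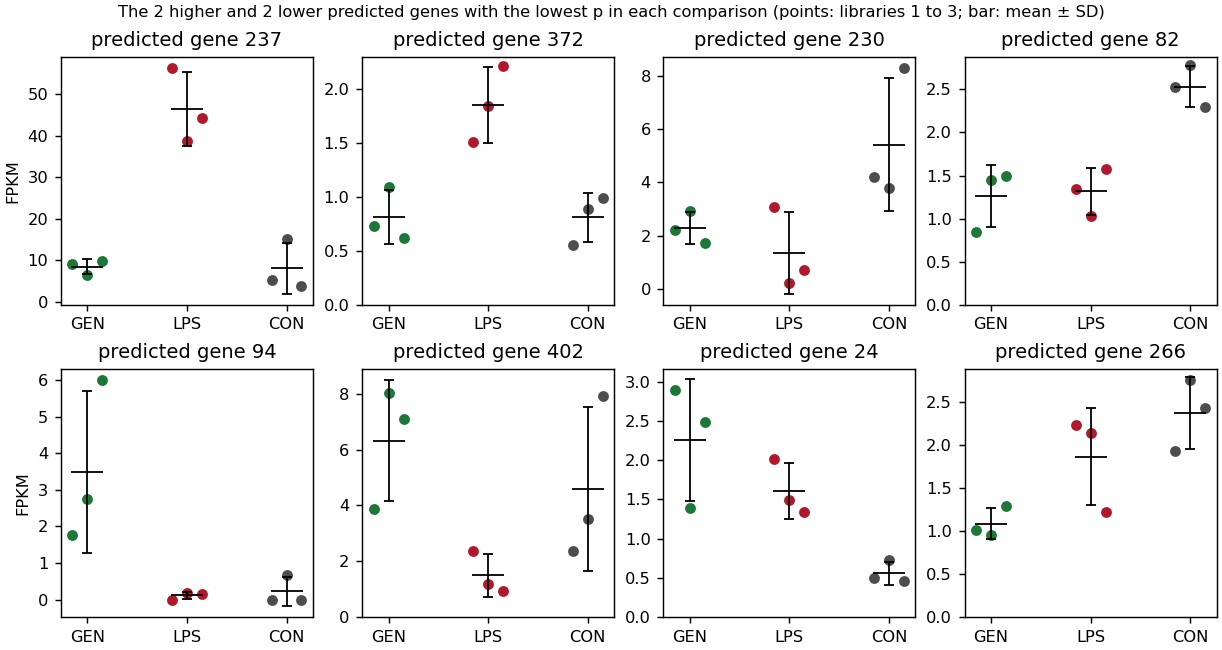
FPKM of the 8 predicted genes that were among the 2 higher and the 2 lower ones with the lowest p in at least 1 of the 3 comparisons, as points for the libraries of GEN, LPS and CON (n = 3 each) and bars for mean ± SD. Predicted gene 237 lies at 38.8 to 56.3 FPKM in LPS, above all GEN and CON libraries, and the adjusted p-values of all 8 in the limma fit of 9 libraries are above 0.05.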

How the data were processed

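Thymus RNA was extracted with Trizol and made into TruSeq libraries, per the labels' protocols. Per the submitters' processing notes, CASAVA 1.8 and featureCounts 1.5.0-p3 were among the tools and GRCg6a was the genome build. Neither the aligner nor the annotation release, the use of strand in counting or the source of the predicted genes is stated there. The authors deposited FPKM values per gene with chromosome, strand, start, end and length. The table held 0 columns of samples outside the series, and 0 pairs of libraries were identical.

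FPKM times length fell on whole multiples of 1 step in each library, with 100% of values whole within 0.01, which gave fragments per gene and the scaling total. The level rule (1 FPKM or more in 3 or more libraries) left 13506 genes to test. Limma with a mean-dependent prior was fitted to log2(FPKM + 1), pseudocount 1, over all 9 libraries, a scale that shrinks the fold changes of genes at low level. P-values are two-sided, and Benjamini-Hochberg adjustment ran over these 13506 genes, with calls at an adjusted p under 0.05. An exact test of 3 against 3 libraries cannot go below 0.1. The software was limma 3.58.1 in R 4.3.3 and Python 3.11.15. Alternatives were voom on recovered fragments, other scalings, filters and pseudocount, no trend, quality weights, only the 6 libraries compared, a replicate block and leaving out each library. The fit and the recovery of fragments were tested on simulated data. The simulation gave all libraries the same spread, had no outlying library and changed abundant genes alone. It therefore does not measure how many changes were missed in these data.

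The genes, lists and tests were chosen with earlier results of these data known. Named were the 10 most abundant, the 2 higher and 2 lower with the lowest p per comparison, any called, the 3 longest and shortest, up to 6 each on chromosomes 16, W and the mitochondrial genome, the 3 of largest ratio over 8 libraries, 3 on each side of the level rule and the 5 steadiest. Genes alike to predicted gene 448, the on and off limits of 5 and 0.1 FPKM and the 20-base distance were chosen after values were seen, as were predicted genes 259, 176, 128, 419, 399, 428, 312, 600 and 401.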

Additional observations from a re-analysis of the deposited data

How the results depend on the processing

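No predicted gene was called in any comparison under the alternatives, except in LPS against CON when 1 library was left out. There the count was 0 to 1, and the 1 was predicted gene 237 without CON 2 (0.206%, against 0.0074% of all tested genes). Unadjusted counts of predicted genes differed between settings, and so did the share of all tested genes, given after each share of the predicted ones. For LPS against CON the count was 28 (5.77% against 4.52%), 70 with library quality weights (14.4% against 12.7%) and 23 to 56 with 1 library left out. The 23 came without LPS 3 (4.74% against 2.52%), and 56 both without CON 1 (11.5% against 9.74%) and without CON 2 (11.5% against 11.6%). For GEN against LPS it was 23 (4.74% against 3.24%), 58 with quality weights (12% against 13.4%), 53 with only the 6 libraries compared (10.9% against 12.6%) and 16 to 47 with 1 library left out. The 16 came without LPS 1 (3.3% against 1.59%) and the 47 without CON 3 (9.69% against 13.7%). For GEN against CON it was 43 (8.87% against 10.8%), 101 with quality weights (20.8% against 22.7%) and 25 to 64 with 1 library left out. It was 25 without GEN 3 (5.15% against 5.02%), 28 without GEN 2 (5.77% against 5.63%), 64 without CON 2 (13.2% against 19.9%) and 62 without CON 3 (12.8% against 15.9%). The replicate block gave 31 (against 5.03%), 29 (against 3.97%) and 40 (against 10.2%) in the 3 comparisons, and 0 calls. What a replicate number stands for is not labelled, and same-numbered libraries had correlated deviations (-0.10 to 0.34) over 0.1 in 4 of 9 pairs, with 4 of 9 libraries closest to their own number. The 12 named fold changes gave 224 values under other settings, of which 0 changed direction and 1 passed the threshold. These 12 were picked by their low p in the main fit, and the other settings refit the same libraries. The kept direction is therefore no independent support. The size of these fold changes moved by over 1.5 times for 8 with a pseudocount of 0.1 and for 6 by voom, none of them past the threshold. With the pseudocount of 0.1 the log2 fold changes were 1.12 (LPS against CON) and -1.11 (GEN against LPS) for predicted gene 372, -2.44 for 230 in LPS against CON, 4.03 (GEN against LPS) and 4.0 (GEN against CON) for 94, and in GEN against CON -0.99 for 82, 1.8 for 24 and -1.06 for 266. As a share of summed FPKM, the predicted genes took 1.41%, 1.57% and 1.70% in GEN, 1.06%, 1.52% and 1.37% in LPS, and 1.06%, 1.16% and 2.01% in CON. Without predicted gene 448, an alternative added after the data were seen, their shares of fragments were 0.670%, 0.662% and 0.721% in GEN, 0.600%, 0.650% and 0.647% in LPS, and 0.589%, 0.592% and 0.725% in CON. With at least 50% of the span required, 1 predicted gene overlapped an Ensembl span on the same strand and 0 on the other. At least 1 FPKM in all 9 libraries left 264 predicted genes, at least 0.5 FPKM in 3 libraries 558, and leaving out 1 library 471 to 480. The cause of these shifts was not tested. Depth limits the rare models most: 20 of the 485 had fewer than 10 fragments in their median library.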
